A study of Danio rerio with 6 samples.

Results

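The mitochondrial ribosomal protein genes were taken as every row of the deposited table whose symbol starts with mrps or mrpl followed by a digit. There were 63 such rows among 11218 in all, 24 for the small subunit and 39 for the large subunit, and they stood for 60 gene symbols. The subunits are described apart. The series holds live cells sorted from the heads of Danio rerio embryos at 48 hours after fertilization, with 3 libraries from scarb2a mutants and 3 from their wild type siblings. Each library came from 5000 cells sorted from a pool of 50 heads, and the labels call the pools biological replicates. Cells of both genotypes were chosen by the same red fluorescence, from a bacterial artificial chromosome transgene in which scarb2a regulatory sequence drives KalTA4 and KalTA4 drives UAS-mKate2. The labels name no mutant allele, no drug and no other agent. The gate follows the activity of 1 regulatory sequence, and the sorted cells are not 1 cell type: markers of lens, neurons, skin, mesenchyme and radial glia were all counted in them.

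Mitochondria keep a small genome of their own, which encodes core proteins of the respiratory chain, and they translate its messages on a dedicated ribosome. The RNA of that ribosome comes from the mitochondrial genome, 12S ribosomal RNA for the small subunit and 16S for the large one. All of its proteins are encoded in the nucleus, made in the cytosol and imported. Some have homologues in bacterial ribosomes and others exist only in mitochondria, and inherited loss of single members in humans causes deficiencies of the respiratory chain. The symbol does not always give the location: in the mammalian structure the MRPS30 and MRPS18A proteins sit in the large subunit.

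The recovered counts came to between 1560238 and 2086990 per library. Values below are normalized counts, that is counts of 3′ tags divided by 1 factor per library, as the authors deposited them. Differences are mutant minus wild type on the log2(value + 1) scale, and a gene is called where limma's p, adjusted over all genes tested by the method of Benjamini and Hochberg, lay under 0.05. The rule on low values, a mean of at least 5 over the 6 libraries, kept 59 of the 63 members, 22 of the small and 37 of the large subunit. The 6 libraries held 469 counts for the median member tested and 179 for the median gene tested. The counts are used to compare genotypes, and no order of levels between members is drawn from them.

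On the authors' scale most mitochondrial ribosomal protein genes were not called between genotypes, which also held for most genes tested. No small subunit gene was called in either direction, and of the large subunit genes mrpl21 and mrpl2 rose and mrpl13 fell. These 3 of 59 members (5.08%) compare with 1873 of 9647 genes tested, or 19.4%; 2 members were called higher in the mutant, beside 10.9% of all genes, and 1 lower, beside 8.5%. That split depends on the scaling: on the authors' scale 1053 genes were higher and 820 lower, and with equal totals 796 and 1305, with 1 large subunit gene higher and 4 lower. The 3 mutant libraries lay wholly above the 3 wild type libraries for 7 members, 2 small and 5 large, and wholly below for 4, all large. That is 18.6% of the members tested, against 34.6% of all genes tested. By subunit it is 9.09% of the small and 24.3% of the large subunit genes tested. At an unadjusted p under 0.05 there were 1 small and 7 large subunit genes, 4.55% and 18.9% of those tested. Together they were 13.6% of the members tested against 31.2% of all genes tested. The median difference was -0.02 over the small subunit and -0.04 over the large subunit, beside -0.01 over all genes tested.

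**Figure D1:**
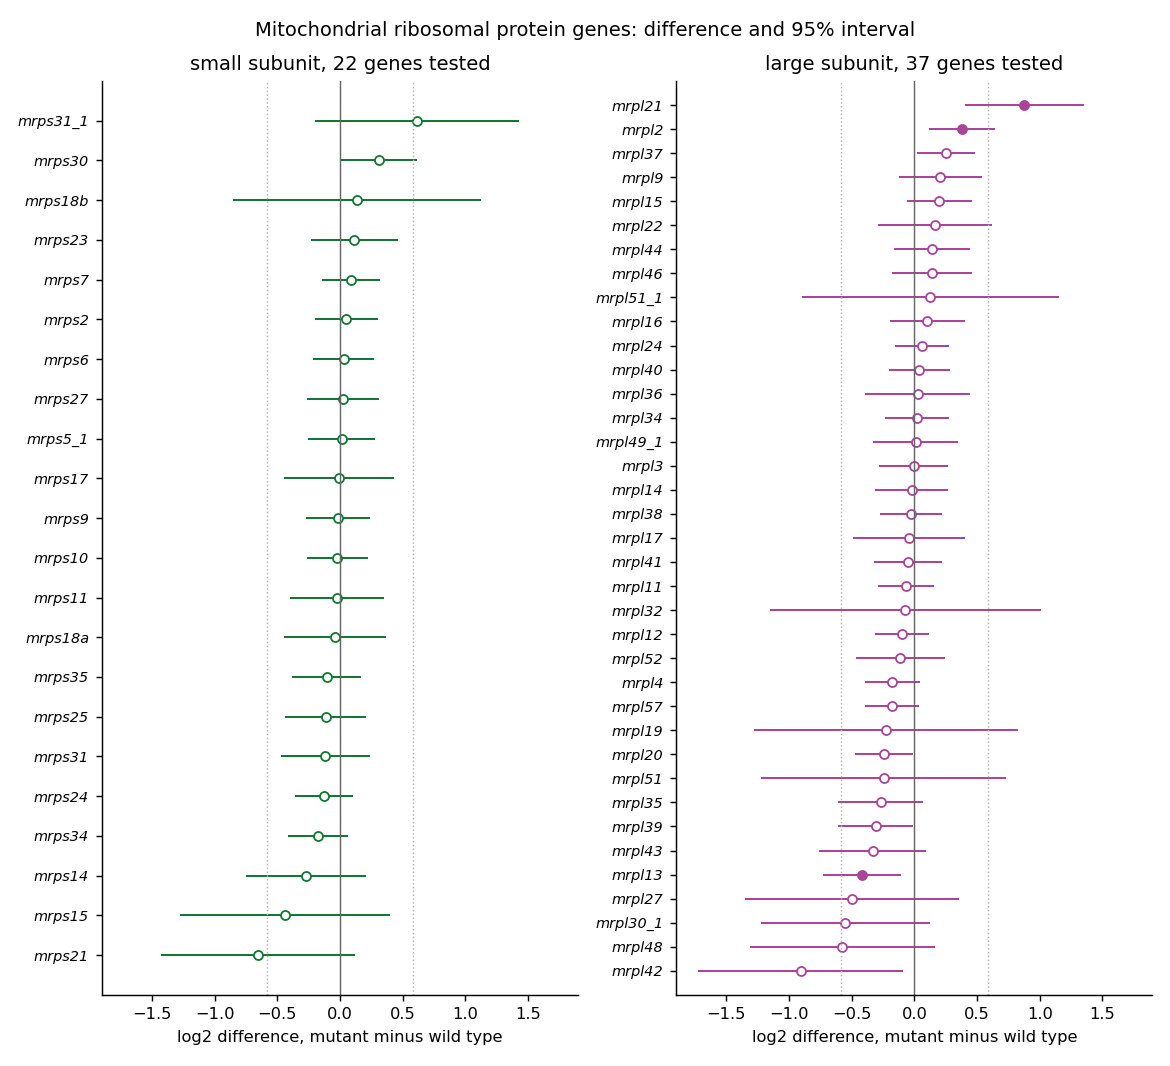
Difference between genotypes for each tested member (x axis, log2 of normalized counts + 1, mutant minus wild type), with the small subunit on the left and the large subunit on the right. Lines are 95% intervals from limma, filled points are genes called at an adjusted p under 0.05, and dotted lines mark a change of 1.5-fold; 38 of 59 intervals lie between the dotted lines.

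On the authors' scale the intervals bound how far most members can have moved. For 38 of the 59 tested members, 16 small and 22 large, the limma 95% interval lay within a change of 1.5-fold in both directions, and for 46 it lay within 2-fold. Over all genes tested, whose median gene had fewer counts, the shares were 29.7% and 61.1%. Among the 39 members with a mean of at least 50 normalized counts, 34 intervals lay within 1.5-fold and all 39 within 2-fold; over all 3349 genes at that level the shares were 66.6% and 89.9%. The median standard error of these members was 0.12, close to the 0.13 of all genes at that level. Summed over the members tested, the chi-square within genotypes was 1.33 times what counting error alone gives on average, beside 2.12 times for all genes tested. The chi-square per degree of freedom was 1.09 for the median member and 1.07 for the median gene tested. The median of a chi-square lies below its average, so these medians compare members with genes and not with counting error. The members with wide intervals were the rarely counted ones, such as mrps18b with 33 counts in all and mrpl51 with 34.

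**Figure D2:**
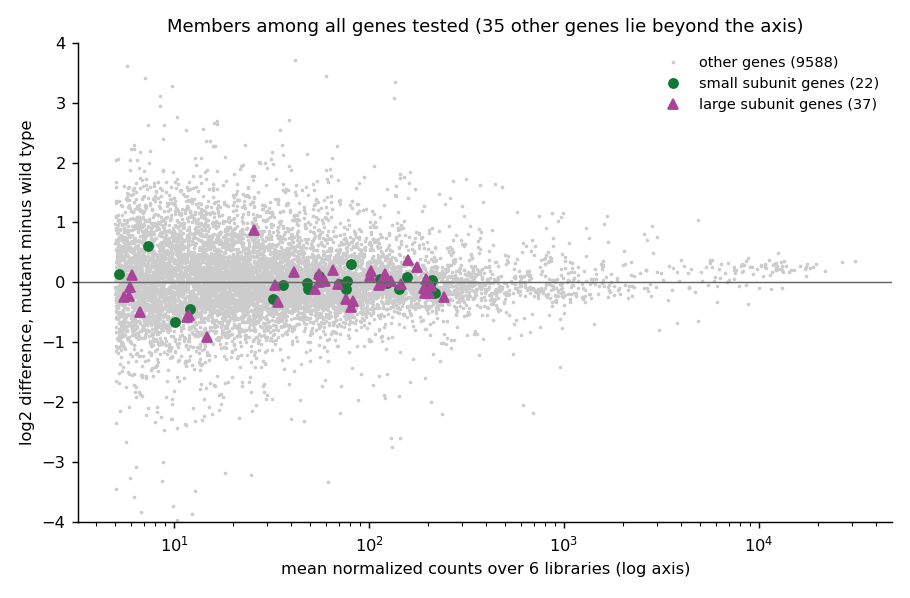
Difference between genotypes (y axis, log2, mutant minus wild type) against the mean normalized count over 6 libraries (x axis, log scale) for all 9647 genes tested, with small subunit genes as circles and large subunit genes as triangles. The members lie between -0.91 and 0.88, and 35 other genes lie beyond the axis. Other genes are far more numerous, and the median gene tested had fewer counts than the median member, so the ranges are not compared.

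Of 14 tested small subunit genes with bacterial homologues none was called, beside 19.4% of all genes tested, and 10 had intervals within 1.5-fold. mrps7, whose bacterial homologue organizes the head of the small subunit, had 136.2, 164.6 and 157.4 in wild type and 168.7, 160.5 and 156.9 in the mutant, a difference of 0.09 ± 0.11 (SE, n = 3; adjusted p = 0.629). mrps10 had 241.2, 201.4 and 180.7 against 213.2, 216 and 183.1 (-0.02, 95% interval -0.26 to 0.22), and mrps6 had 206.4 ± 11.2 against 212.5 ± 31.8 (SD, n = 3). In each of these genes the ranges of the genotypes overlapped. mrps11, a protein of the platform in bacteria, differed by -0.02, mrps24, the uS3 homologue, by -0.13 and mrps5, listed only under a row with a number suffix, by 0.01, and none of them was called. mrps12, a protein of the decoding centre, was listed under an older clone name and so lay outside the rule; it had 170.8, 172.1 and 185.5 in wild type and 172.8, 181.3 and 169.5 in the mutant (-0.01 ± 0.10, SE; adjusted p = 0.949). The class, grouped after its values were seen, had a median difference of -0.02.

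Of 8 tested small subunit rows specific to mitochondria none was called either, beside 19.4% of all genes tested, and 6 had intervals within 1.5-fold. mrps34, whose loss in humans impairs mitochondrial translation, had 240.1, 207.9 and 243.4 in wild type and 208, 228.8 and 176.8 in the mutant, a difference of -0.18 (95% interval -0.40 to 0.05; adjusted p = 0.297). mrps35 had 147.3 ± 14.4 against 137.7 ± 23.9, and mrps23 53.1 ± 9.45 against 57.1 ± 2.38 (SD, n = 3). mrps30, whose protein sits in the large subunit in the mammalian structure, stood nearest to a call. It had 58.9, 83.4 and 73.9 in wild type and 90, 88.2 and 87.9 in the mutant. Every mutant library of mrps30 lay above every wild type library, with a difference of 0.31 ± 0.14 (SE) and an unadjusted p of 0.0436, but the adjusted p was 0.146. The median difference of this class was -0.04.

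Several small subunit genes had fewer counts than the 469 of the median member tested, and wide intervals. mrps21 had 8.1, 16.2 and 13.7 in wild type and 6.2, 8.9 and 7.3 in the mutant, a difference of -0.65 whose 95% interval ran from -1.42 to 0.11 (adjusted p = 0.238). The genotypes overlapped in mrps21, as they did in mrps15 (14.3 ± 6.91 against 9.83 ± 3.83, SD, n = 3), mrps14 (35.2 ± 6.85 against 29.2 ± 7.68) and mrps18b (5.0 ± 2.03 against 5.47 ± 1.40). None of these genes was called. What size of difference could have been detected in them at this depth was not tested.

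mrpl21 showed the clearest change of any member. It encodes the homologue of bacterial L21, which binds the large subunit rRNA, and had 17.3, 16.2 and 20.1 normalized counts in wild type and 29, 36.7 and 35.4 in the mutant. The lowest mutant library exceeded the highest wild type library, and the means were 17.9 ± 2.01 and 33.7 ± 4.12 (SD, n = 3), a ratio of 1.89. The fitted difference was 0.88 ± 0.22 (SE; limma adjusted p = 0.00878), from 159 counts over the 6 libraries. The call held with each library left out in turn (adjusted p from 0.0132 to 0.0440) and with equal totals (0.77, 0.0211). DESeq2 on the recovered counts did not call it (adjusted p = 0.0890).

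mrpl2 and mrpl13 passed the threshold narrowly. mrpl2, whose bacterial homologue lies at the peptidyl transferase centre, had 162.7, 123.4 and 126.9 in wild type and 193.5, 163.4 and 178.6 in the mutant, so that the highest wild type library lay just under the lowest mutant library. It rose by 0.38 ± 0.12 (SE; limma adjusted p = 0.0318), with means of 137.7 ± 21.8 and 178.5 ± 15.1 (SD, n = 3). The call of mrpl2 did not hold when wild type library 3 (adjusted p = 0.137) or 4 (0.119), or mutant library 1 (0.127) or 3 (0.0832), was left out, and with equal totals the difference was 0.27 (0.116). DESeq2 (adjusted p = 0.121) and limma without a mean-variance trend (0.182) did not call mrpl2 either. mrpl13, the homologue of an early assembly protein of the bacterial large subunit, had 92.3, 95.3 and 87.6 in wild type and 65.2, 83.2 and 58.9 in the mutant. All 3 mutant libraries lay below wild type, and mrpl13 fell by 0.42 ± 0.14 on the log2 scale (SE; limma adjusted p = 0.0490). Its limma adjusted p rose above 0.05 when wild type library 1 (0.0973), 3 (0.135) or 4 (0.0827), or mutant library 1 (0.126) or 3 (0.200), was left out. With 1 library left out the difference stayed negative, between -0.31 and -0.56. The call of mrpl13 was lost in 12 of 20 alternatives, among them edgeR (adjusted p = 0.0543), DESeq2 (0.254) and limma without a mean-variance trend (0.155).

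**Figure D3:**
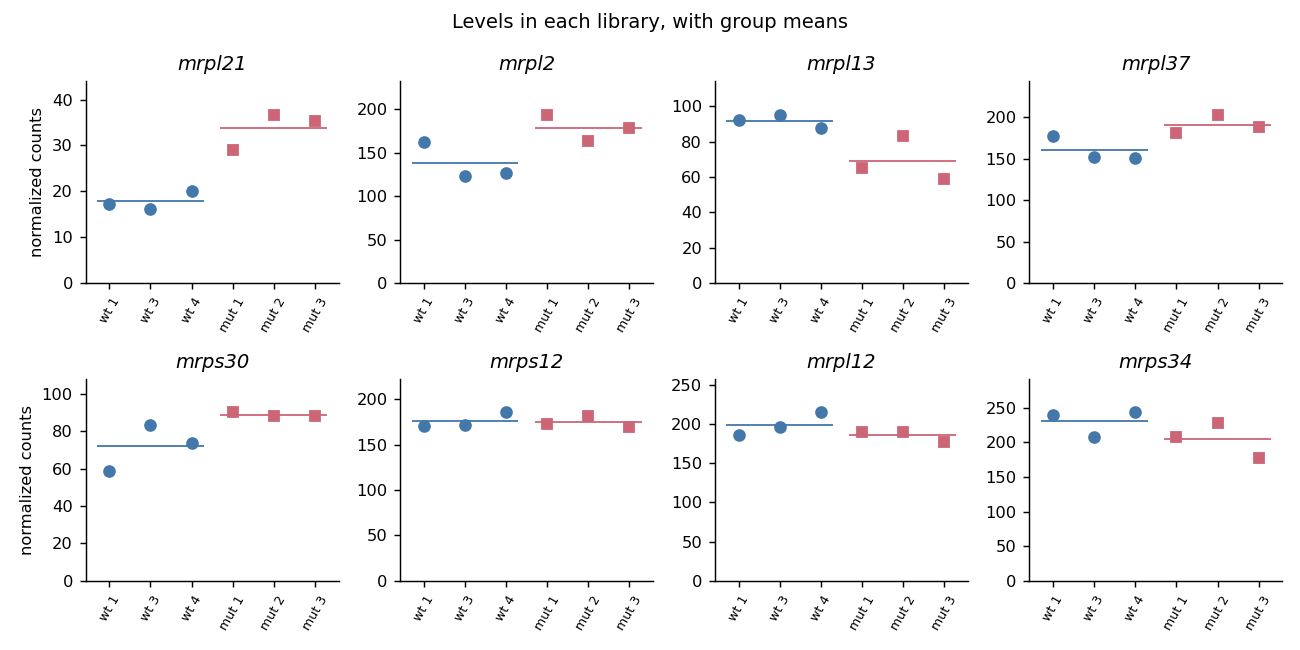
Normalized counts (y axis, from 0) in each of the 6 libraries for the 3 called genes mrpl21, mrpl2 and mrpl13 and for mrpl37, mrps30, mrps12, mrpl12 and mrps34, which were not called; lines are group means. The groups are apart in the called genes and in mrpl37 and mrps30, and they overlap in mrps12, mrpl12 and mrps34.

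Several other well counted members of the large subunit with known positions or roles were not called. mrpl12, which forms the flexible stalk that recruits translation factors, had 185.8, 196 and 214.5 in wild type and 189.4, 189.2 and 176.8 in the mutant (-0.10, 95% interval -0.31 to 0.11; adjusted p = 0.540). mrpl11, at the base of that stalk, had 204.3, 210 and 225.7 against 228.7, 196.1 and 187.7 (-0.07, adjusted p = 0.710). mrpl4, which reaches into the exit tunnel in bacteria, had 215.4 ± 8.71 against 191.2 ± 17.9 (SD, n = 3; -0.18, adjusted p = 0.257). The genotypes overlapped in all 3. mrpl24, at the tunnel exit in bacteria, differed by 0.06, mrpl44, which has a fold related to RNase III, by 0.14, and mrpl3, near the peptidyl transferase centre in bacteria, by -0.01, and none was called. mrpl20, whose bacterial homologue acts in assembly, had 289.7, 243.6 and 256.2 against 255.6, 209 and 203.1, a difference of -0.24 with an unadjusted p of 0.0333 and an adjusted p of 0.121. It was called only without mutant replicate 1 (adjusted p = 0.0404) and with equal totals (0.0188), among 20 alternatives.

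Large subunit genes specific to mitochondria were not called. mrpl37 had 177.7, 152.6 and 151 in wild type and 181.1, 203.1 and 188.6 in the mutant, and its mutant libraries lay just above wild type (0.25 ± 0.11, SE; adjusted p = 0.105). mrpl57 lay the other way, with 196.2, 203.5 and 220.1 against 173.9, 192.2 and 180.4 (-0.18, adjusted p = 0.229). mrpl42 had the largest negative estimate of any member, 16.2, 24.9 and 15.3 in wild type and 4.1, 15.8 and 11.8 in the mutant (-0.91, 95% interval -1.72 to -0.10; adjusted p = 0.113). The genotypes overlapped in mrpl42 through mutant replicate 2, and the estimate rested on single libraries: it was -1.26 without mutant replicate 2 (adjusted p = 0.0429), -0.40 without mutant replicate 1 (0.458) and -0.70 without wild type replicate 3 (0.343). The 15 tested rows of this class had a median of -0.05. The 22 tested large subunit rows with bacterial homologues held all 3 called genes, 13.6% of these rows beside 19.4% of all genes tested. The median of these 22 rows was -0.03.

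None of the remaining named large subunit genes was called, and of those given next only mrpl9, with 403 counts, was well counted. mrpl48 (14.3 ± 4.70 against 9.17 ± 2.50, SD, n = 3), mrpl27 (8.0 ± 0.755 against 5.43 ± 1.17) and mrpl30, listed only under a row with a number suffix (14.5 ± 3.52 against 9.43 ± 0.416), had estimates from -0.58 to -0.50 and adjusted p values from 0.257 to 0.443. Those of mrpl27 and mrpl30 did not overlap between genotypes and rested on 41 and 73 counts. mrpl9 had 60.7 ± 7.70 against 70.4 ± 10.1 (0.21, adjusted p = 0.398). The differences of the members described only as a group lay between -0.11 (mrps25) and 0.05 (mrps2) for the small subunit and between -0.33 (mrpl43) and 0.20 (mrpl15) for the large subunit, and none of them was called.

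Rows that share a symbol were examined singly and summed, because the labels do not say how tags were divided between such rows. mrps31 had 60, 45.5 and 47.4 in wild type and 44.5, 45.6 and 49.9 in the mutant, while its second row mrps31_1 had 5.8, 5.4 and 5.6 against 9.3, 9.9 and 8.2. The second row thus stood above wild type in every mutant library (0.62, adjusted p = 0.298), but the sum of both was 56.6 ± 8.06 and 55.8 ± 2.17 (SD, n = 3; -0.01, adjusted p = 0.974). The sums of both mrpl51 rows (12.3 ± 5.91 against 11 ± 1.70) and of both mrps22 rows (8.10 ± 3.4 against 6.57 ± 2.47) did not pass either. mrpl49, listed only with a suffix, differed by 0.01 without a call. The 4 rows under the rule on low values were mrps22, mrps22_1, mrpl33 and mrpl53, with 18 to 30 counts each, and their adjusted p values in a fit with no such rule ran from 0.311 to 0.982. RefSeq's table for the assembly GRCz12tu gives 75 symbols of this form; 15 of them had no row of that name, of which mrps12 and mrpl58 were found under an older name and the others, mrpl10, mrpl18 and mrps16 among them, were not analysed here.

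Summed over each subunit, the messages stayed level on the authors' scale. The small subunit genes came to 2123, 2080 and 2039 normalized counts in wild type and 2072, 2120 and 1922 in the mutant, and the large subunit genes to 3354, 3329 and 3388 and to 3342, 3384 and 3176. The genotypes overlapped in both sums, and the small subunit had 60.2 to 63.3 normalized counts for every 100 of the large subunit in wild type and 60.5 to 62.7 in the mutant. As a share of all counts in a library, however, both subunits together took 0.304, 0.312 and 0.324% in wild type and 0.285, 0.289 and 0.280% in the mutant (exact Clopper-Pearson 95% intervals from 0.296 to 0.332% and from 0.272 to 0.297%, covering counting error only). These shares did not overlap between genotypes. The share of the cytosolic ribosome's protein genes was 31.5 to 33.9% in wild type and 35.2 to 36.7% in the mutant. With every library set to the same total, the median difference over all genes tested was -0.12. It was -0.13 over the small subunit and -0.15 over the large one. On the authors' scale these medians were -0.01, -0.02 and -0.04. In such bulk samples fewer cells of a type and less RNA per cell cannot be told apart.

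**Figure D4:**
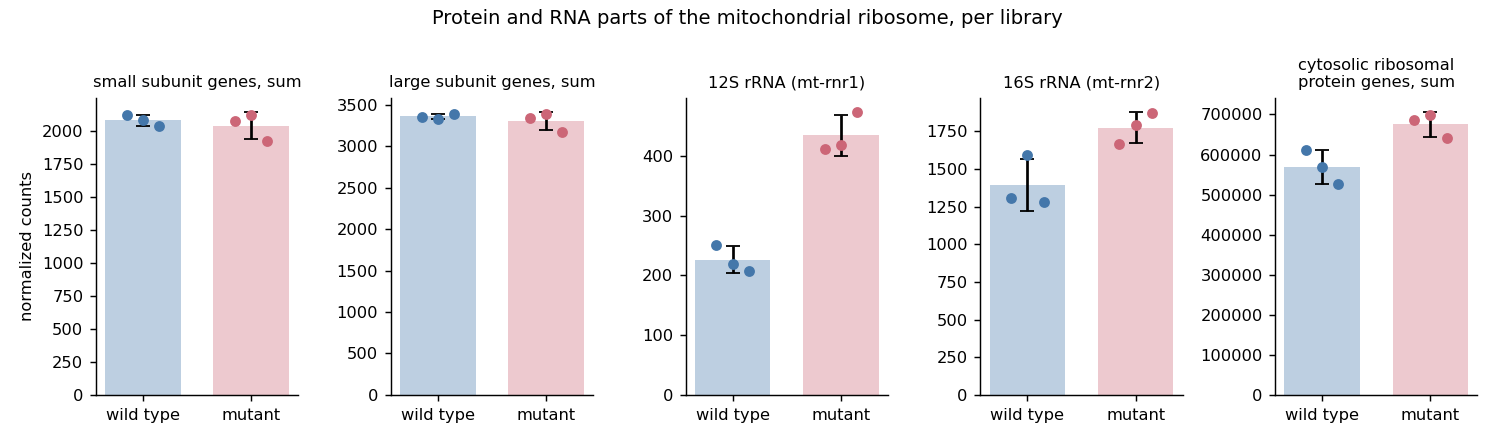
Normalized counts per library (points), group means (bars, from 0) and SD (error bars, n = 3) for the summed small and large subunit genes, the mitochondrial 12S and 16S rRNA and the summed cytosolic ribosomal protein genes; each panel has its own y axis. The sums of mitochondrial ribosomal protein genes overlap between genotypes, and the other 3 quantities are higher in all mutant libraries.

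Both RNA components of the same ribosome were higher in the mutant on the authors' scale. mt-rnr1, the 12S rRNA of the small subunit, had 251.6, 219.8 and 207.2 in wild type and 411.9, 418 and 473.3 in the mutant. It rose by 0.94 ± 0.10 (SE; limma adjusted p = 6.89e-07), a ratio of 1.92, and was called in all 20 alternatives with differences from 0.83 to 1.02. Not all of these could differ: median ratio scaling repeats the main fit, and summing rows of a shared symbol leaves this gene's values as they were. mt-rnr2, the 16S rRNA of the large subunit, had 1310, 1592.5 and 1282 against 1665.2, 1790 and 1869.6 and rose by 0.35 ± 0.08 (SE; adjusted p = 0.00427). Among 20 alternatives the call of mt-rnr2 was lost in limma without a mean-variance trend (0.166), and with equal totals the difference was 0.24 (0.0393). As a share of all counts 12S rRNA took 0.0124 to 0.0140% in wild type and 0.0217 to 0.0260% in the mutant, without overlap, while 16S rRNA took 0.0727 to 0.0920% and 0.0875 to 0.103%, with overlap. For every 100 normalized counts of small subunit genes there were 11.9, 10.6 and 10.2 of 12S rRNA in wild type and 19.9, 19.7 and 24.6 in the mutant. For every 100 of large subunit genes there were 39.1, 47.8 and 37.8 of 16S rRNA in wild type and 49.8, 52.9 and 58.9 in the mutant, also without overlap. For every 100 of 16S rRNA there were 19.2, 13.8 and 16.2 of 12S rRNA in wild type and 24.7, 23.4 and 25.3 in the mutant, with no overlap. The libraries were made from RNA captured by its poly(A) tail, and mitochondrial rRNA carries only short tails, so these counts follow the captured part of each rRNA. Only 2 rows, mt-rnr1 and mt-rnr2, had symbols that start with mt-, so messages made from the mitochondrial genome were not analysed here.

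Genes that work with the mitochondrial ribosome were mostly without a call as well. Of 6 tested subunit genes with other symbols, none passed: dap3, a small subunit protein that binds GTP, had 146.2 ± 14.8 against 167.0 ± 4.31 (SD, n = 3; 0.20, adjusted p = 0.236), gadd45gip1 286.2 ± 36.2 against 249.5 ± 27.8, and ict1, now named mrpl58 and known as a peptidyl-tRNA hydrolase, 85.5 ± 13.8 against 77.7 ± 9.26. None of 9 tested rows for mitochondrial translation factors passed, with a median of 0.04; tufm, the elongation factor that brings aminoacyl-tRNA, had 207.6 ± 34.4 against 221.9 ± 17.4. None of 11 rows for mitochondrial aminoacyl-tRNA synthetases passed, with a median of -0.13, and the best counted of these, tars2, had 84.3 ± 12.8 against 90.9 ± 5.9. None of 11 rows for mitochondrial transcription and RNA processing passed, with a median of 0.07; hsd17b10, part of the RNase P of mitochondria, had 119.2 ± 6.10 against 141.1 ± 16.7. Beside these 4 groups stand the 19.4% of all genes that were called. With equal totals 2 synthetase rows and 1 subunit gene with another symbol were called lower, beside 1305 of all genes. Without a mean-variance trend 1 synthetase row was called lower.

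Among assembly factors, regulators and chaperones 5 rows rose, which was 5.88, 13.3 and 12.5% of the tested rows of these lists, beside 10.9% of all genes called higher. Of 17 tested rows for assembly and rRNA modification, c1qbp, a matrix protein that binds RNA, rose from 359.3 ± 29.9 to 430.7 ± 33.8 (SD, n = 3; limma adjusted p = 0.0481), and 16 were not called. The call of c1qbp held when wild type library 1 was left out and was lost when any other was (0.0524 to 0.196), and with equal totals (0.224). Of 15 tested rows for regulators of mitochondrial genes 2 rose, and with equal totals 2 rose and 2 fell. pprc1, a coactivator related to PGC-1 that acts on mitochondrial genes in mammals, had 27.7, 20.6 and 20.9 in wild type and 44.5, 46.6 and 51.7 in the mutant, a difference of 1.02 ± 0.20 (SE; adjusted p = 9.43e-04). mycb, one of the zebrafish MYC genes, rose from 244.8 ± 19.9 to 371.8 ± 10.1 (0.60, adjusted p = 7.05e-05), while myca differed by 0.06 and yy1a by -0.25 without a call (0.756 and 0.0983). nrf1, a transcription factor of mitochondrial protein genes that is named here after its values were seen, had 129.1 ± 4.85 against 121.5 ± 17.8. Of 16 tested rows for mitochondrial chaperones and proteases, atf5b, whose mammalian homologue acts in the mitochondrial stress response, rose by 0.85 (adjusted p = 0.0346), a call that held when wild type library 1 was left out and was lost when any other was (0.0642 to 0.119). In all, the call of atf5b was lost in 8 of 19 alternatives, among them equal totals (limma adjusted p = 0.0563) and DESeq2 (0.205). A second row of hspa9, the HSP70 of the matrix, rose by 0.91 (0.00459), but hspa9 itself differed by 0.01, so the change of that gene is uncertain. hspd1, the HSP60 of the matrix, had 267.8 ± 16.4 against 317.2 ± 36.8 (0.24, adjusted p = 0.0980). With equal totals 1 of the 16 rows for chaperones and proteases was called higher and 1 lower.

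Larger families of the cytosolic ribosome, the respiratory chain and protein import were counted in the same way, beside 10.9% of all genes called higher and 8.5% called lower. Of 82 tested rows for cytosolic ribosomal proteins 45 rose and 1 fell, with a median of 0.26; rpl7 rose by 0.40 and rpl4 by 0.38. With equal totals 29 rose and 3 fell (median 0.14), with quantile normalization 14 and 2 (0.07), and without a mean-variance trend none was called. Without wild type replicate 4 the count that rose was 22, and without mutant replicate 2 it was 28. Of 84 tested rows for nuclear genes of oxidative phosphorylation and its assembly factors 2 rose and 9 fell, with a median of -0.09; cox4i2 fell from 87.2 ± 9.48 to 53.5 ± 1.80 (SD, n = 3; adjusted p = 0.00168) and ndufs6 from 207.5 ± 24.4 to 154.7 ± 9.31 (0.0110; 0.0534 without wild type replicate 1). The count that fell was 26 with equal totals, 2 without a mean-variance trend and 1 in DESeq2. It was 19 with replicate number as a block, where only libraries 1 and 3 of each genotype inform the difference. With 1 library left out it was 4 (wild type 1), 2 (wild type 3), 10 (wild type 4), 3 (mutant 1), 8 (mutant 2) and 4 (mutant 3). Of 20 tested rows for mitochondrial import 1, timm8b, fell (adjusted p = 0.0495), with a median of 0.01; that call was lost when wild type library 1 or 4 or mutant library 2 or 3 was left out (0.122 to 0.211). Whether the mitochondrial ribosomal protein genes differ from these families was not tested; the families are set side by side as counts.

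Markers of several cell types moved with genotype in these libraries. The summed lens markers had 3593 to 5216 normalized counts in wild type and 58.7 to 129.1 in the mutant, with 30 of 31 tested rows lower. Those of mesenchyme and matrix had 1782 to 2224 and 4501 to 5188, with 8 of 9 higher, and those of skin 3710 to 5525 and 7786 to 7931, with 5 of 5 higher. Markers of dividing cells had 3461 to 3480 and 4834 to 5354, with 7 of 10 higher. Retina markers had 2157 to 2936 and 962 to 1154, with 8 of 12 tested rows lower, and neuron markers 11332 to 12222 and 9390 to 9802, with 6 of 11 lower. The radial glia markers had 2243 to 2631 and 1691 to 1763, with 2 of 9 tested rows higher and 4 lower. Endothelium markers overlapped between genotypes, 86.6 to 107.7 and 99.3 to 116.9, with 2 of 4 tested rows higher and 1 lower. The sole row among microglia and macrophage markers, apoeb, was not called. Beside these counts stand 10.9% of all genes tested called higher and 8.5% called lower. Blood markers had 0 to 4.8 in wild type and 12.9 to 1202 in the mutant, with hbae3 at 935.6 in mutant replicate 1. Without that library the differences were 0.98 for mrpl21, 0.98 for mt-rnr1 and 0.40 for mt-rnr2. Those of mrpl2 and mrpl13 were then 0.32 and -0.38, and neither was called (limma adjusted p = 0.127 and 0.126). The part of these cell types in the differences of mrpl21, mrpl2, mrpl13 and the rRNAs was not tested.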

How the data were processed

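Cells sorted for a scarb2a reporter were profiled by a bulk form of MARS-seq, a 3′ tag method, per the labels' protocols. danRer11 is the build in the submitters' processing notes (aligner and counter: not given in the sources used here). Deposited values are a signal: 99.997% of 67308 values were whole multiples of 1 step per library (tolerance 0.0505), so they are counts divided by 1 factor per library, and the authors' factors equal median ratio factors. The lowest maximum over libraries of any gene was 6 counts. The members, gene lists and tests were chosen with earlier results of these data known.

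Genes with a mean of at least 5 were tested with limma, with genotype as the sole term and its trend of variance on mean, from log2(value + 1), with Benjamini-Hochberg adjustment over 9647 genes. edgeR on the recovered counts called 1879 genes and DESeq2 1031. Named members were those called, the 6 with most counts and the 4 largest changes each way per subunit, rows sharing a symbol, rows of low value and 16 landmarks, of which 12 had a row; the split by bacterial homology was added after values were seen. For cytosolic ribosomal genes, kinase and binding protein genes with the same start of the symbol were left out. Exact binomial intervals on shares cover counting error only. The limma fit was also run on simulated counts with known changes, as many up as down. They were scaled back by the factors used to simulate them, so that run could not check the scaling. Its outcome is not given here. Replicate numbers 1 and 3 occur in both genotypes. Python 3.11.15 was used with pandas 2.3.3, numpy 2.4.6, matplotlib 3.10.9 and scipy 1.17.1, and R 4.3.3 with DESeq2 1.42.0, edgeR 4.0.16 and limma 3.58.1.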

Additional observations from a re-analysis of the deposited data

How the results depend on the processing

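The count of all genes called was 1873 and lay between 1424 and 2101 in 18 of 20 alternatives; limma without a trend gave 1007 and DESeq2 1031. Among these alternatives median ratio scaling repeats the main fit, and summing rows of a shared symbol alters only a few member rows. With equal totals 796 genes were higher and 1305 lower, in place of 1053 and 820. No small subunit gene was called by limma, by edgeR or by DESeq2, with 1, 1 and 0 at an unadjusted p under 0.05, except 1 (mrps31_1, adjusted p = 0.0328) in limma without a trend. Large subunit calls went from 3 to 5 with equal totals (mrpl21 higher; mrpl13, mrpl20, mrpl39 and mrpl4 lower), to 1 without a trend and to 0 in DESeq2, where 2 members passed an unadjusted p under 0.05, the smallest adjusted p was 0.0890 and 2 members had none. Leaving out 1 library gave 1 to 4 large subunit calls, with 1 when wild type library 3, wild type library 4 or mutant library 3 was missing. The median difference was -0.0187 for the small subunit and -0.0442 for the large; it was -0.1302 and -0.1529 with equal totals, where the median of all genes was -0.12. Leaving out 1 library gave -0.0974 (without wild type replicate 1) to -0.0038 for the large subunit and -0.0621 to 0.0048 for the small one. The replicate block gave medians of -0.0977 and -0.1121, 1597 calls over all genes, 0 small and 4 large subunit calls, mrpl42 added (adjusted p = 0.0115). In that fit mutant library 2 and wild type library 4 have no partner of the same number and do not inform the genotype difference. Only 2 pairs share a number, their deviations correlated by 0.04 and -0.01 over 9647 genes, and the numbers were not taken as pairs. Over 60 named genes and 1185 comparisons none of the called differences changed sign, and 20 genes without a call did in at least 1 alternative. Depth limits members under a mean of 50, of which 4 of 20 tested had an interval within 1.5-fold.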
